A study of Mus musculus with 12 samples.

Results

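The NF-kB pathway and its TNF receptors were followed through 10 genes in the retinas of 12 mice. The genes were the transcription factor subunits Nfkb1, Nfkb2, Rela and Relb, their regulators Nfkbia, Tnfaip3 and Bcl3, and the receptors Tnfrsf1a, Tnfrsf9 and Tnfrsf12a. They are 10 of the 36131 genes in the count table. The set was chosen by gene name around Bcl3 and Tnfrsf9, which had been selected on measured values, a lower level in O2-IC100 than in O2-PBS retinas. That difference is therefore described below without p-values. Counts of calls on it among the 10 genes are given with the share or number of all genes called, and nothing is read from them. All 10 genes had 1 row each in the table and passed the filter on low counts.

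The retinas came from C57BL/6J wildtype mice at P18, with 1 poly(A)-selected library per mouse. RA-PBS mice (animals 1 to 4) stayed in room air and received placebo, PBS. O2-PBS mice (animals 5 to 8) were placed in 75% O2 at P7, went back to room air at P12 and received PBS. O2-IC100 mice (animals 9 to 12) had the same oxygen exposure and received the antibody IC100, which binds ASC, the adaptor protein of inflammasomes, at 10 µg/g into the peritoneum on P12, P14 and P16. The labels give those injection days and that route for placebo as well. No group received IC100 in room air, so the effect of the antibody without hyperoxia was not measured. The labels do not say which pups shared a litter.

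NF-kB is a family of dimeric transcription factors that inhibitor proteins, the IkBs, hold in the cytoplasm until kinases of the IKK complex mark the inhibitor for destruction. TNF and related ligands switch this pathway on through receptors of the TNF receptor superfamily, and NF-kB then raises the transcription of its own inhibitors, of some of its subunits and of inflammatory genes. Bcl3 is an unusual member of the IkB family that works in the nucleus, where it binds dimers of p50 or p52 at DNA. In oxygen-induced retinopathy, hyperoxia stops the growth of retinal vessels, and the return to room air leaves the retina short of oxygen, with new vessels and reactive glia.

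Promoters of the genes were read first, since several NF-kB genes are known targets of NF-kB itself. RefSeq promoter windows (GRCm38.p6, 250 bases before to 50 bases after a transcription start) were at hand for 8 of the 10 genes, in 12 windows. Those of Nfkb1 and Relb were not analysed here. The 10-base kB consensus was searched on both strands, and overlapping matches were counted apart. It matched in 7 of the 12 windows (58.3%), against 4.51% of all 32851 mouse windows, and in 5 of the 8 genes, namely Bcl3, Nfkb2, Nfkbia, Tnfaip3 and Tnfrsf9, against 5.14% of 27025 genes. Of the 3 Nfkb2 windows, 2 overlap and share 1 site, and genes with several windows have more chances to match. The windows of Rela, Tnfrsf1a and Tnfrsf12a held none of these letters. Below are the windows of 4 genes that differ in how their RNA behaved: Bcl3 (chr7:19822706-19823005, minus strand), the first of 3 for Nfkb2 (chr19:46304487-46304786, plus strand), Nfkbia (chr12:55492598-55492897, minus strand) and the second of 2 for Tnfrsf9 (chr4:150927749-150928048, plus strand). They run 5′ to 3′ with the kB matches in capitals.
Bcl3: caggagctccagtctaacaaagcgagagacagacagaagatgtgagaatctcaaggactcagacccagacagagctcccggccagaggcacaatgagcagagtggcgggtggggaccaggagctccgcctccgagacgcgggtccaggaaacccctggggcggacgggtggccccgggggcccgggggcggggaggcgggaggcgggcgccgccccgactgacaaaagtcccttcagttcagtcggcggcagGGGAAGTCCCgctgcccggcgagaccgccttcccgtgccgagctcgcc
Nfkb2: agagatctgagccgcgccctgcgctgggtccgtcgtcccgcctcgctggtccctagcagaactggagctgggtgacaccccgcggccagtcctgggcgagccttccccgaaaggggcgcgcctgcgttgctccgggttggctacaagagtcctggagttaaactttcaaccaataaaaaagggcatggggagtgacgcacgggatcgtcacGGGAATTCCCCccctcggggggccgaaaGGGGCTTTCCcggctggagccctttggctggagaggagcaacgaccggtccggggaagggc
Nfkbia: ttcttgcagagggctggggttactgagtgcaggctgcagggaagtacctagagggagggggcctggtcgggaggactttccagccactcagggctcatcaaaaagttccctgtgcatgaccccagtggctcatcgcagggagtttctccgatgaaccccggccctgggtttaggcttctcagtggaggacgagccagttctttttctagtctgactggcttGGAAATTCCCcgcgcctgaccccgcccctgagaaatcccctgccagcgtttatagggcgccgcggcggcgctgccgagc
Tnfrsf9: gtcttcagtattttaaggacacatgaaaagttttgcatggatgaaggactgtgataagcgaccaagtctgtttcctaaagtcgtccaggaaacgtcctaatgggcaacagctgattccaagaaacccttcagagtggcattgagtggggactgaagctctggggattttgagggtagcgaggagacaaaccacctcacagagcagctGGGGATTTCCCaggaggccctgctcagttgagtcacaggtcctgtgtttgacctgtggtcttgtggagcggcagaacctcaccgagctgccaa
Counting from the start as +1 with no base 0, the Bcl3 match began at +3, just inside the transcript. In Nfkb2 the matches began at -39, -38 and -11, the first pair overlapping in 1 run of capitals. The Nfkbia match began at -29, and the overlapping Tnfrsf9 pair at -43 and -42. The GAS motif of STAT factors, TTCNNNGAA, was in a window of 3 of the 8 genes (9.55% of all genes, 8.30% of all windows) and the AP-1 motif TGANTCA in 3 (8.97% of all genes, 7.81% of all windows). The second Tnfrsf9 window held all 3 motifs. A match describes letters in a window and shows no binding.

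Total depth ran from 14907143 to 24438082 estimated counts, so that 3 counts stood for 1.23e-05 to 2.01e-05% of a library before scaling. O2-IC100 animal 10 stood apart. Genes of lens crystallins took 58.9% of its counts, the summed rod genes were at 11164 CPM against 37840 to 45203 in the other 11 retinas, and its scaling factor was 0.324 against 1.07 to 1.15. CPM is the depth-scaled count of edgeR after TMM, a normalization between libraries, here over all 12 retinas. On that scale 3 counts in animal 10 came to 0.379 CPM, although its total count was the largest. Values are therefore given with and without animal 10. Crystallin genes also took 1.25 to 4.49% of the counts in RA-PBS animals 2 to 4, but 0.00313% in RA-PBS animal 1, at most 0.0157% in O2-PBS and at most 0.00855% in the other O2-IC100 retinas. Lens markers thus differed between RA-PBS and O2-PBS. In the fit without animal 10 all 19 tested genes of the lens list were called lower in O2-PBS, beside 2.18% of all genes tested. The part of lens markers in the results below was not tested beyond fits that left out RA-PBS retinas. Among these were 1 fit without animals 3 and 10 and 1 that kept only animal 1 of RA-PBS.

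Per kb of exon, the 10 genes spanned a wide range of levels in RA-PBS. Tnfaip3, which encodes the ubiquitin-editing NF-kB inhibitor A20, was far above the rest at 58.8 ± 4.97 CPM per kb (SD, n = 4). Nfkbia (IkBα) followed at 10.5 ± 1.44, Rela (the p65 subunit) at 9.87 ± 0.695 and Nfkb1 (the p105 precursor of p50) at 6.57 ± 0.838 CPM per kb. Nfkbia and Rela overlapped between retinas, while Nfkb1 lay below both. Tnfrsf1a at 3.17 ± 0.971, Tnfrsf12a at 2.82 ± 0.922, Relb at 1.21 ± 0.337 and Nfkb2 at 0.795 ± 0.283 CPM per kb came next, and each overlapped its neighbour. Tnfrsf9 at 0.361 ± 0.121 and Bcl3 at 0.285 ± 0.0539 CPM per kb were lowest and overlapped too. In O2-PBS, Bcl3 moved from the tenth to the seventh place at 3.37 ± 1.27 CPM per kb, above every Nfkb2, Relb and Tnfrsf9 value of that group, and Tnfrsf1a (8.16 ± 3.09) and Tnfrsf12a (8.08 ± 3.72) passed Nfkb1 in mean, still overlapping it. Without animal 10 the O2-IC100 order was again that of RA-PBS from the first to the sixth place, with Bcl3 ninth at 0.717 ± 0.232 CPM per kb (n = 3), overlapping Relb.

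**Figure D1:**
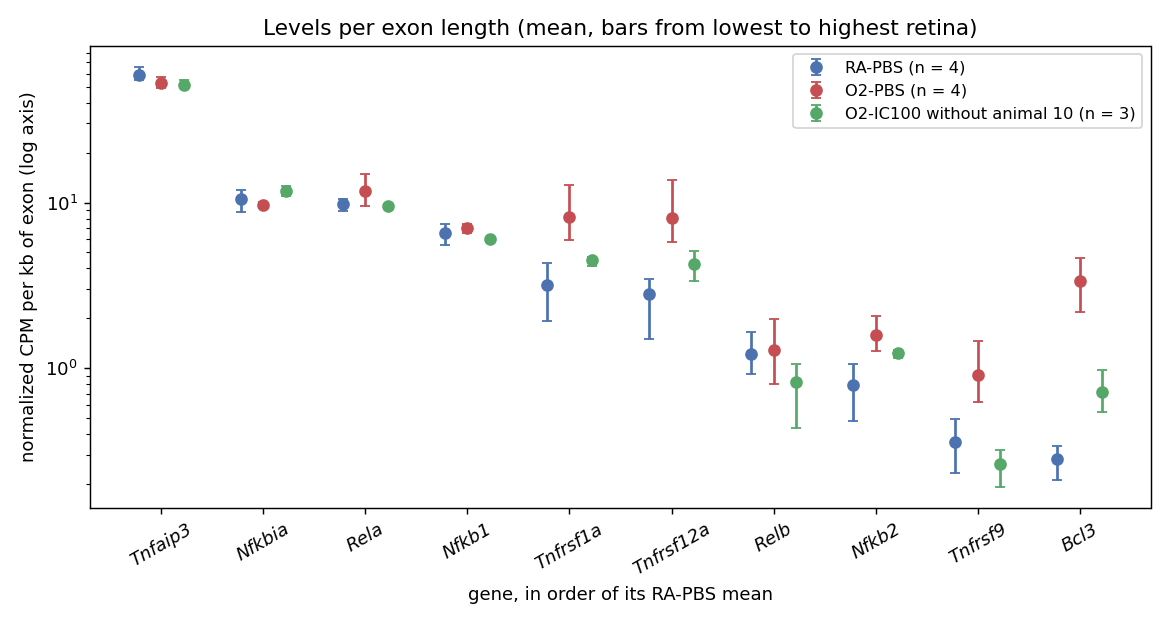
Normalized CPM per kb of exon (log axis) for the 10 genes in order of their RA-PBS mean, with bars from the lowest to the highest retina. Tnfaip3 is highest in every group, and Bcl3 moves from 0.285 in RA-PBS to 3.37 in O2-PBS and 0.717 in O2-IC100 without animal 10.

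The first question was how hyperoxia changed these genes under placebo. In the fit without animal 10, 5 of the 10 genes were higher in O2-PBS than in RA-PBS and none was lower. They were Bcl3, the receptors Tnfrsf12a, Tnfrsf1a and Tnfrsf9, and the subunit gene Nfkb2. Of all 16688 genes tested, 4.09% passed in that direction. With all 12 retinas only Bcl3 passed, 1 of 10, beside 0.782% of 16489 genes. Passing meant, in edgeR, a difference of 1.5-fold or more with p under 0.05 and adjusted p under 0.1. In both fits the same 8 genes had a log2 fold change above 0, and the median over the 10 was 0.62, beside -0.01 over all genes tested. Every O2-PBS value lay above every RA-PBS value for 5 of the 10 genes, the ones named above, which was so for 7.81% of genes tested. O2-PBS retinas entered the choice of Bcl3 and Tnfrsf9 too, so this comparison is not independent of that choice for those 2 genes.

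Bcl3 (ENSMUSG00000053175) changed most. Its level was 0.393, 0.531, 0.555 and 0.632 CPM in the RA-PBS retinas (animals 1 to 4), 8.56, 4.38, 7.92 and 4.05 CPM in the O2-PBS retinas (animals 5 to 8), and 1.01, 5.81, 1.15 and 1.81 CPM in the O2-IC100 retinas (animals 9 to 12). RA-PBS libraries held only 7 to 12 counts of it each and O2-PBS libraries 73 to 142. All 4 O2-PBS retinas stood above all RA-PBS retinas, and within O2-IC100 animal 10 alone reached the O2-PBS range. The log2 fold change of O2-PBS over RA-PBS was 3.54 ± 0.33 (SE), an 11.6-fold difference, with an adjusted p of 6.83e-05 without animal 10. With all 12 retinas it was 3.54 ± 0.57 with an adjusted p of 0.0274, and this call was lost when RA-PBS animal 2 (adjusted p = 0.134) or animal 4 (adjusted p = 0.103) was left out of the 12. It was kept without animals 5 and 10 (3.35, adjusted p = 0.000308). In the fit that left 1 RA-PBS retina, animal 1 with its low crystallin share, the log2 fold change was 3.95. That retina was assumed there to vary like the others.

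Among the receptors, Tnfrsf12a (Fn14, ENSMUSG00000023905), the receptor of the cytokine TWEAK, was at 3.65, 1.59, 3.05 and 3.69 CPM in RA-PBS, 14.5, 6.10, 6.84 and 6.87 CPM in O2-PBS and 5.38, 9.47, 4.61 and 3.58 CPM in O2-IC100. Animal 5 held the highest value by far among the O2-PBS retinas, and the other 3 were close to each other and still above RA-PBS. The log2 fold change was 1.51 ± 0.31 (adjusted p = 0.0101) without animal 10 and 1.52 ± 0.40 (adjusted p = 0.181) with all 12 retinas. Leaving out animals 5 and 10 gave 1.15 (adjusted p = 0.0268).

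Tnfrsf1a (TNFR1, ENSMUSG00000030341), the widely expressed death-domain receptor of TNF, was at 6.90, 4.15, 9.27 and 7.00 CPM in RA-PBS, 27.4, 12.8, 14.2 and 16.1 CPM in O2-PBS and 8.89, 27.5, 10.1 and 9.90 CPM in O2-IC100. O2-PBS and RA-PBS did not overlap, and animal 5 was again the highest of its group. In log2 units O2-PBS exceeded RA-PBS by 1.36 ± 0.25 (adjusted p = 0.00525) without animal 10, 1.37 ± 0.41 (adjusted p = 0.281) with all 12 and 1.08 (adjusted p = 0.0123) without animals 5 and 10.

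Tnfrsf9 (4-1BB, ENSMUSG00000028965), best known as a costimulatory receptor of T cells, was the scarcest receptor, at 1.23, 0.580, 0.722 and 1.05 CPM in RA-PBS, 3.62, 1.56, 1.87 and 2.00 CPM in O2-PBS and 0.799, 0.379, 0.480 and 0.686 CPM in O2-IC100. Its O2-PBS retinas were above all others, and its O2-IC100 retinas, animal 10 included, overlapped only with the lower RA-PBS ones. Between 12 and 21.7 counts per library underlay the RA-PBS values and 30.0 to 60 the O2-PBS values. The difference was 1.32 ± 0.36 (adjusted p = 0.0363) without animal 10 and 1.33 ± 0.37 (adjusted p = 0.222) with all 12. This was the least stable of the 5 calls. It was lost without animals 5 and 10 (1.01, adjusted p = 0.140) and with a covariate for Y-linked expression (1.19, adjusted p = 0.120). With animal 1 as the lone RA-PBS retina the log2 fold change was 0.85.

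The subunit genes did not move as 1 group. Nfkb2 (ENSMUSG00000025225), which encodes the p100 precursor of p52, was at 2.02, 4.49, 4.22 and 2.69 CPM in RA-PBS, 8.68, 5.37, 7.07 and 5.71 CPM in O2-PBS and 4.84, 19.8, 5.42 and 5.29 CPM in O2-IC100. O2-PBS lay above RA-PBS, and the 3 O2-IC100 retinas other than animal 10 lay between the RA-PBS and most of the O2-PBS values. O2-PBS exceeded RA-PBS by 0.99 ± 0.24 (adjusted p = 0.0221) without animal 10 and 1.00 ± 0.47 (adjusted p = 0.716) with all 12.

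Relb (ENSMUSG00000002983), the partner of p52 in the non-canonical pathway, was at 3.65, 2.03, 2.16 and 2.90 CPM in RA-PBS, 4.40, 3.13, 2.04 and 1.77 CPM in O2-PBS and 0.958, 3.66, 2.16 and 2.35 CPM in O2-IC100. The 3 groups overlapped, and O2-PBS held the highest value of the series in animal 5 and a value below every RA-PBS retina in animal 8. On the log2 scale O2-PBS minus RA-PBS was 0.08 ± 0.34 (adjusted p = 0.92, 95% interval -0.60 to 0.75) without animal 10, and its sign turned in several alternatives.

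Rela (ENSMUSG00000024927) was at 28.7, 27.1, 27.2 and 24.2 CPM in RA-PBS, 40.4, 27.6, 25.8 and 33.1 CPM in O2-PBS and 25.8, 79.0, 25.2 and 26.7 CPM in O2-IC100. Apart from animals 5, 8 and 10 the retinas were within a narrow band. Its log2 fold change of 0.24 ± 0.12 did not pass (adjusted p = 0.283, 95% interval -0.002 to 0.49). Nfkb1 (ENSMUSG00000028163) ranged from 23.0 to 30.8 CPM in RA-PBS, from 26.9 to 30.5 CPM in O2-PBS and from 23.8 to 25.5 CPM in O2-IC100 without animal 10, which held 42.8 CPM. Its difference between O2-PBS and RA-PBS was 0.09 ± 0.10 on the log2 scale (adjusted p = 0.653, 95% interval -0.10 to 0.28).

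Neither inhibitor passed with hyperoxia. Nfkbia (ENSMUSG00000021025) was at 18.7, 13.9, 15.4 and 18.2 CPM in RA-PBS, 14.6, 14.9, 15.9 and 15.4 CPM in O2-PBS and 17.2, 17.8, 19.9 and 18.6 CPM in O2-IC100. O2-PBS values sat inside the RA-PBS range, and all 4 O2-IC100 values were above all O2-PBS values. O2-PBS minus RA-PBS was -0.12 ± 0.11 (adjusted p = 0.569, 95% interval -0.35 to 0.10). Tnfaip3 (ENSMUSG00000019850) was at 252 to 302 CPM in RA-PBS, 224 to 263 CPM in O2-PBS and 226 to 251 CPM in O2-IC100 without animal 10, a difference of -0.16 ± 0.08 between O2-PBS and RA-PBS (adjusted p = 0.288, 95% interval -0.33 to 0.003). In animal 10 it was at 44.3 CPM, the only one of the 10 genes that was far lower there, next to the low rod sum of that retina. In bulk retina, fewer cells of a type and less RNA per cell cannot be told apart.

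**Figure D2:**
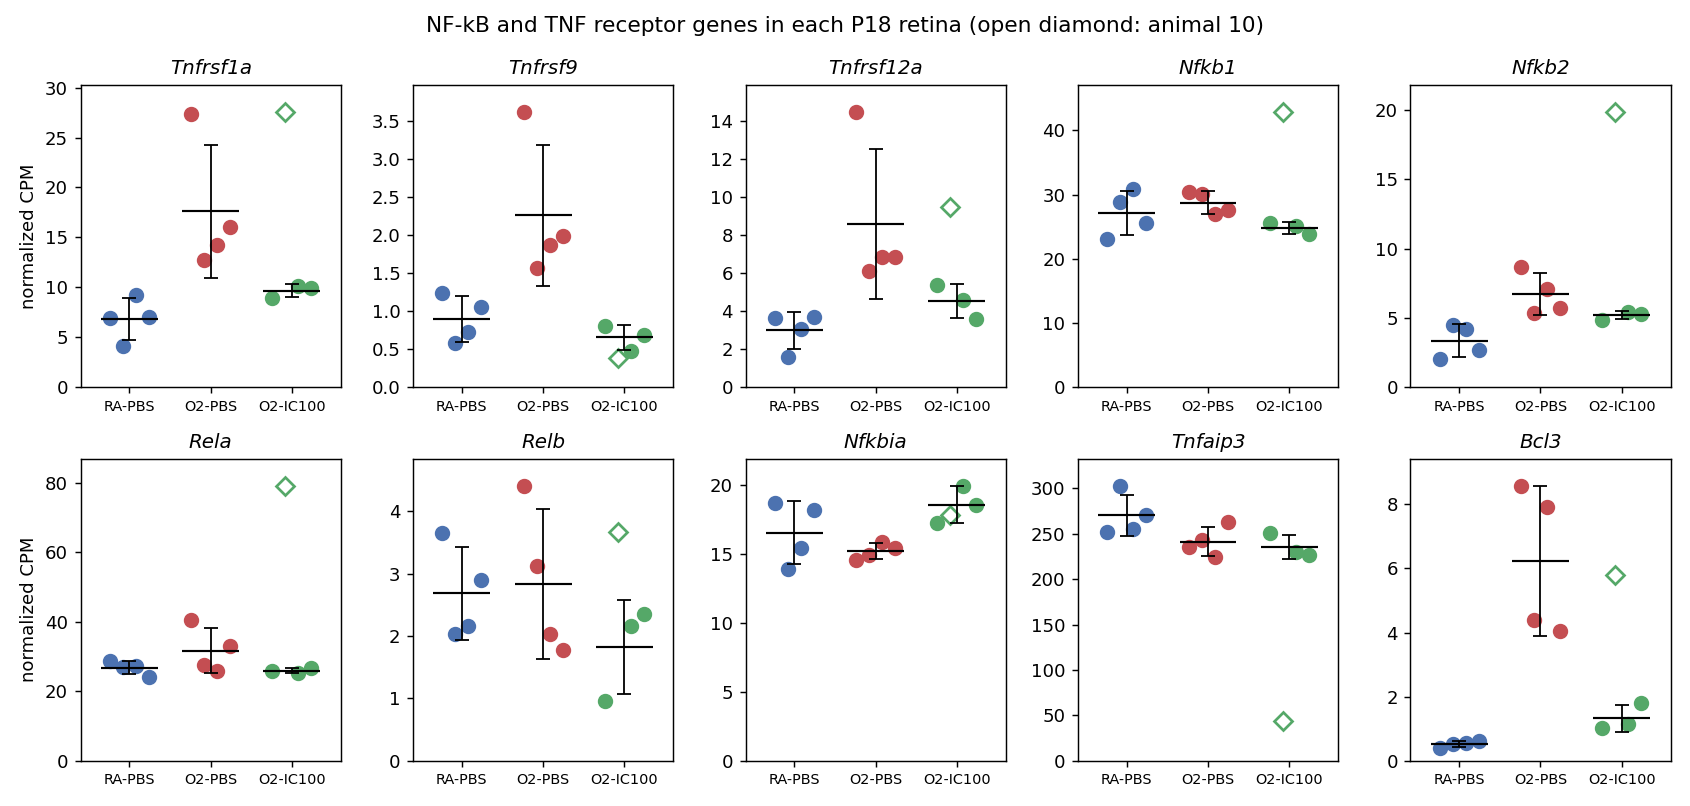
Normalized CPM of the 10 genes in each retina, with the mean and SD of each group without animal 10 (black) and animal 10 as an open diamond. Every O2-PBS point of Bcl3, Tnfrsf1a, Tnfrsf9, Tnfrsf12a and Nfkb2 is above every RA-PBS point, and animal 10 lies far from the other 3 O2-IC100 retinas for Nfkb1, Nfkb2, Rela, Tnfaip3, Tnfrsf1a and Bcl3.

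Animal 5 was the highest O2-PBS retina for 8 of the 10 genes, a count given without the share over all genes and not read further. It also had the lowest total count of the series and the highest summed reactive Müller glia genes of its group, at 1146 CPM against 716 to 912 in the other 3. Without animals 5 and 10, 4 of the 5 genes were called higher in O2-PBS. The number of all genes called in that fit is given in the last section. With animal 1 as the lone RA-PBS retina, and without animal 10, the log2 fold changes were 1.71 for Nfkb2, 1.33 for Tnfrsf1a and 1.21 for Tnfrsf12a.

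The second comparison was that of O2-IC100 with O2-PBS, the contrast that chose Bcl3 and Tnfrsf9. With all 12 retinas edgeR called none of 16489 genes (0%), though 2784 had an unadjusted p under 0.05 and DESeq2 called 125. Without animal 10, 2 of the 10 genes were called lower in edgeR, Bcl3 and Tnfrsf9, beside 0.731% of genes tested, and nothing is read from this count because those 2 were selected by it. On the same 11 retinas DESeq2 called Bcl3, Tnfrsf12a and Tnfrsf1a lower and did not call Tnfrsf9. Nothing is read from these calls either, and the number of all genes called in that fit is given in the last section. Every one of the 3 O2-IC100 values was below every O2-PBS value for 5 of the 10 genes (Bcl3, Tnfrsf9, Tnfrsf1a, Tnfrsf12a and Nfkb1), as for 16% of all genes tested, and above for 1 (Nfkbia), as for 19.4%.

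Bcl3 was 2.21 ± 0.33 log2 units (SE) below O2-PBS, -2.21, without animal 10, and -1.41 ± 0.52 with animal 10 in the group. Tnfrsf9 was at -1.76 ± 0.40 without animal 10 and -1.90 ± 0.38 with it. The 2 genes thus differ in what animal 10 does to them, since it was the highest O2-IC100 retina for Bcl3 and the lowest for Tnfrsf9, where it held 3 counts. Without animal 10 the other receptors and subunits came to -0.90 ± 0.33 for Tnfrsf12a, -0.85 ± 0.27 for Tnfrsf1a, -0.61 ± 0.38 for Relb, -0.35 ± 0.25 for Nfkb2, -0.27 ± 0.13 for Rela and -0.20 ± 0.10 for Nfkb1. Nfkbia was at 0.31 ± 0.12 and Tnfaip3 at -0.02 ± 0.09. This comparison shares the O2-PBS retinas with the one above. With animal 10 in the group, Nfkb2, Rela and Nfkb1 turned to 0.38 ± 0.46, 0.30 ± 0.34 and 0.02 ± 0.19.

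Genes of the Y chromosome, which males carry (Ddx3y, Eif2s3y, Kdm5d and Uty), stood at 2 levels. Their sum was 4.06 to 9.82 CPM in animals 4, 5, 6, 7 and 10 and 223 to 324 CPM in the other retinas. Each group held retinas of both levels, and most of the low ones were O2-PBS. In this contrast the sum was 283 to 324 CPM in O2-IC100 animals 9, 11 and 12. In O2-PBS it was 7.93 to 9.82 CPM in animals 5 to 7 and 230 CPM in animal 8. Most retinas of the 2 groups were thus apart in these Y-linked genes. RA-PBS held 3 retinas at 223 to 273 CPM and 1 at 5.61 CPM. The comparison of O2-PBS with RA-PBS was thus unbalanced in these genes as well. With the Y-linked level as a covariate, without animal 10, the difference was -1.65 ± 0.39 for Bcl3 and -1.52 ± 0.52 for Tnfrsf9, and neither was called in that fit. Only 1 O2-PBS retina was high in Y-linked genes and only animal 10 of O2-IC100 was low in them, so Y-linked expression and treatment were largely confounded, and beyond that fit the part of Y-linked expression was not tested.

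**Figure D3:**
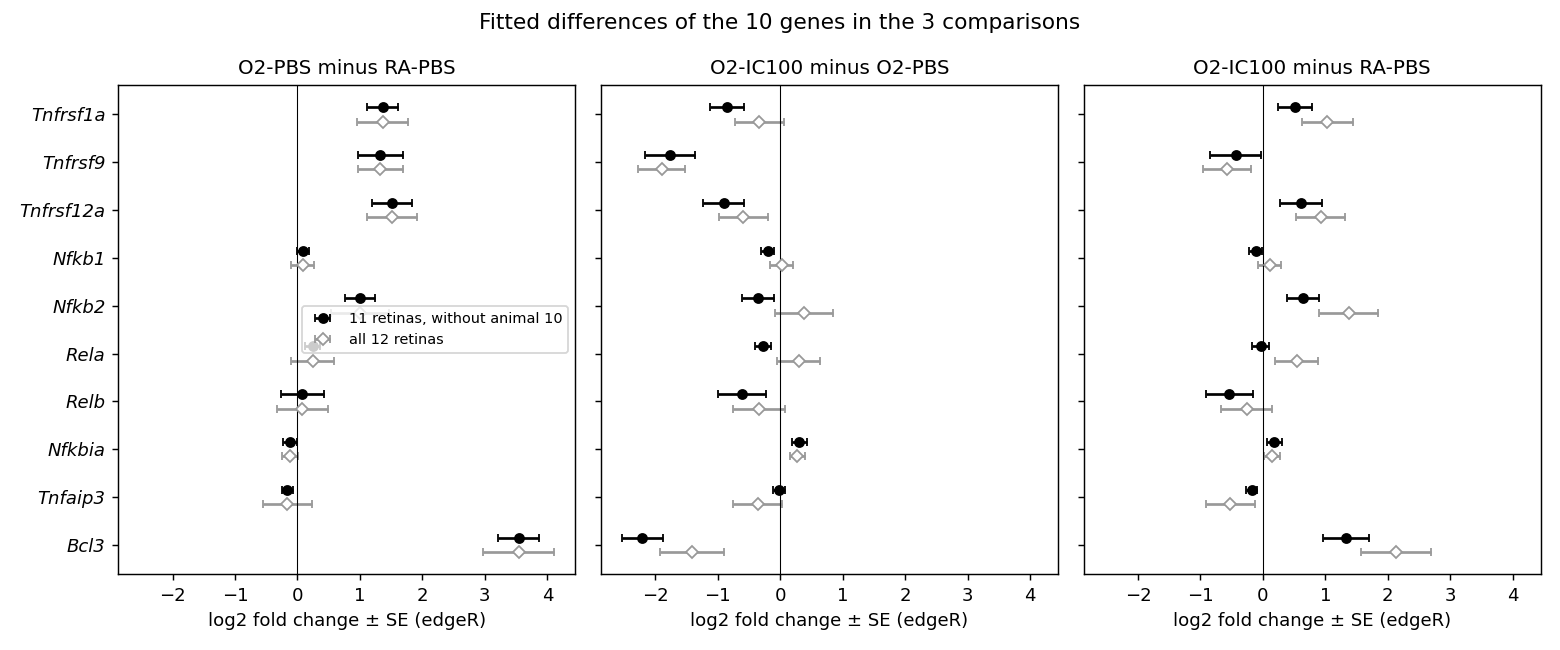
Log2 fold changes with their SE from edgeR for the 10 genes in the 3 comparisons, without animal 10 (filled circles) and with all 12 retinas (open diamonds). In the first panel Bcl3 stands at 3.54 and Tnfrsf12a, Tnfrsf1a, Tnfrsf9 and Nfkb2 between 0.99 and 1.52, while the middle panel shows the contrast that chose Bcl3 and Tnfrsf9.

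The last comparison was of O2-IC100 with RA-PBS, which shares a group with each of the others. None of the 10 genes passed in either fit. The share of all genes called was 0% with all 12 retinas, where 2183 genes had an unadjusted p under 0.05 and DESeq2 called 299, and 0.947% in the higher direction without animal 10. At an unadjusted p under 0.05 there were 4 of the 10 genes with all 12 retinas and 2, Bcl3 and Nfkb2, without animal 10. The number of all genes at that p is not given for the fit without animal 10. DESeq2 called Bcl3 higher in both sets of retinas. The number of all genes it called without animal 10 is in the last section.

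Bcl3 was still 1.33 ± 0.37 log2 units above RA-PBS without animal 10, just short of the adjusted threshold in edgeR (adjusted p = 0.106) and past it in DESeq2 (1.33, adjusted p = 0.0438). In edgeR it passed with the Y-linked covariate (1.57, adjusted p = 0.0505). With animal 1 as the lone RA-PBS retina it was 1.74 log2 units above. Its lowest O2-IC100 value, 1.01 CPM, was above its highest RA-PBS value, 0.632 CPM. Nfkb2 was 0.64 ± 0.26 above (adjusted p = 0.249), with no overlap of the groups, and 1.36 above with animal 1 alone in RA-PBS. For these 2 of 10 genes every O2-IC100 value was above every RA-PBS value, as for 5.84% of genes tested, and for 1, Tnfaip3, every value was below, as for 4.92%. Tnfrsf12a at 0.61 ± 0.34, Tnfrsf1a at 0.51 ± 0.27 and Tnfrsf9 at -0.44 ± 0.41 did not pass and overlapped with RA-PBS.

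Of the ligands of the 3 receptors, Tnfsf12 and Tnfsf9 could be tested and neither passed. Tnfsf12, which encodes TWEAK, the ligand of Tnfrsf12a, was abundant at up to 113 CPM in RA-PBS, 99.2 to 120 CPM in O2-PBS and up to 122 CPM in O2-IC100, where animal 10 held 31.6 CPM, with a difference of 0.01 ± 0.08 between O2-PBS and RA-PBS (adjusted p = 0.949). Tnfsf9, the ligand of Tnfrsf9, stood at 1.44 to 3.11 CPM in RA-PBS and 2.14 to 3.08 CPM in O2-PBS (-0.0025 ± 0.27, adjusted p = 0.997). Tnf itself was scarce, with 0 counts in each of the 4 RA-PBS retinas, 1 to 4 in the O2-PBS retinas (10 in all) and 0 to 3 in the O2-IC100 retinas (6 in all). Every O2-PBS retina held a count and no RA-PBS retina did, where 0 counts in the group allow up to 3, but Tnf did not pass the filter on low counts and was not tested. Lta, a second ligand of Tnfrsf1a, had 0 to 5 counts in RA-PBS, 0 to 3 in O2-PBS and 0 to 16 in O2-IC100, and was not tested either.

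The wider pathway was read from 6 lists of 107 further genes, of which 78 were tested without animal 10. Between O2-PBS and RA-PBS, 10 of the 78 were called higher and none lower, beside 4.09% of all genes tested. The 21 other TNF receptor genes tested held 3, with a list median of 0.23: Tnfrsf1b (TNFR2) at 1.45 ± 0.25 (adjusted p = 0.00316), Tnfrsf8 (CD30) at 0.74 ± 0.15 (adjusted p = 0.00831) and Ltbr (the lymphotoxin beta receptor) at 0.73 ± 0.19 (adjusted p = 0.0327). Of 7 ligands tested (median 0.14), only Tnfsf10, which encodes the death ligand TRAIL, was called, at 1.39 ± 0.36 (adjusted p = 0.0303). Among the 9 other negative regulators (median -0.02) only Tnip2, which encodes an A20-binding protein, was called, at 0.85 ± 0.13 (adjusted p = 0.00159), from 16.4 to 23.9 CPM in RA-PBS to 30.9 to 43.0 CPM in O2-PBS. All-gene medians were within 0.02 of 0 in each comparison.

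Genes for the signalling core were not called. None of 19 IKK and adaptor genes (median 0.05) and none of the 5 other Rel and IkB genes (median 0.13) passed in edgeR or in DESeq2, and 1 gene in each list had an unadjusted p under 0.05 in both tools. Rel, the remaining subunit gene, was at 0.31 ± 0.13 (adjusted p = 0.183), and Nfkbiz, which like Bcl3 encodes a nuclear IkB protein, at 0.00 ± 0.12 (adjusted p = 0.989).

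Genes often listed as NF-kB targets had 5 of 17 tested called higher and none lower, with a list median of 0.42, beside the same 4.09% of all genes. Nos2 (inducible nitric oxide synthase) rose from 0.241 to 0.611 CPM in RA-PBS to 1.36 to 2.95 CPM in O2-PBS (2.12 ± 0.37, adjusted p = 0.00386), and it was the only gene of the 6 lists called in edgeR with all 12 retinas, where DESeq2 called 6. Plau (urokinase) was at 1.63 ± 0.34 (adjusted p = 0.0100), Gadd45b (a stress response gene) at 1.33 ± 0.28 (adjusted p = 0.0109) and Icam1 (an adhesion molecule of endothelium) at 1.03 ± 0.25 (adjusted p = 0.0207). Bcl2a1b was at 2.66 ± 0.60 (adjusted p = 0.0155) on only 0 to 2.58 counts per RA-PBS library and 7 to 16 per O2-PBS library, and its near-identical paralogs make the assignment of its reads uncertain. These genes answer to other factors besides NF-kB, and the list was written with results of these data known.

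Between O2-IC100 and O2-PBS none of the genes in the 6 lists was called in edgeR without animal 10, where 12 had an unadjusted p under 0.05, and DESeq2 called 2 lower, Ltbr and Gadd45b. Against RA-PBS, 4 of the 78 tested were called higher in O2-IC100 in edgeR without animal 10, beside 0.947% of all genes tested. They were Tnfrsf8 (0.67 ± 0.16, adjusted p = 0.0678), Tnfrsf1b (1.00 ± 0.26, adjusted p = 0.0903), Tnfsf10 (1.40 ± 0.38, adjusted p = 0.0994) and Bcl2a1b (2.89 ± 0.62, adjusted p = 0.0534). These 4 were among the 10 called in O2-PBS against the same RA-PBS retinas. Tnfsf10 and Tnfrsf8 were close to their O2-PBS level in O2-IC100, with differences of 0.02 ± 0.36 and -0.06 ± 0.16. Without animal 10, Plau (-1.30 ± 0.36), Nos2 (-1.24 ± 0.38), Gadd45b (-1.01 ± 0.30), Ltbr (-0.69 ± 0.21) and Tnip2 (-0.56 ± 0.14) were lower than in O2-PBS. Tnfrsf1b was at -0.46 ± 0.26, Icam1 at -0.27 ± 0.26 and Bcl2a1b at 0.24 ± 0.50. With animal 10 in the group, Gadd45b, Ltbr and Tnfrsf1b turned to 1.86 ± 1.01, 0.57 ± 0.59 and 0.12 ± 0.41. With all 12 retinas DESeq2 called Nos2 lower.

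**Figure D4:**
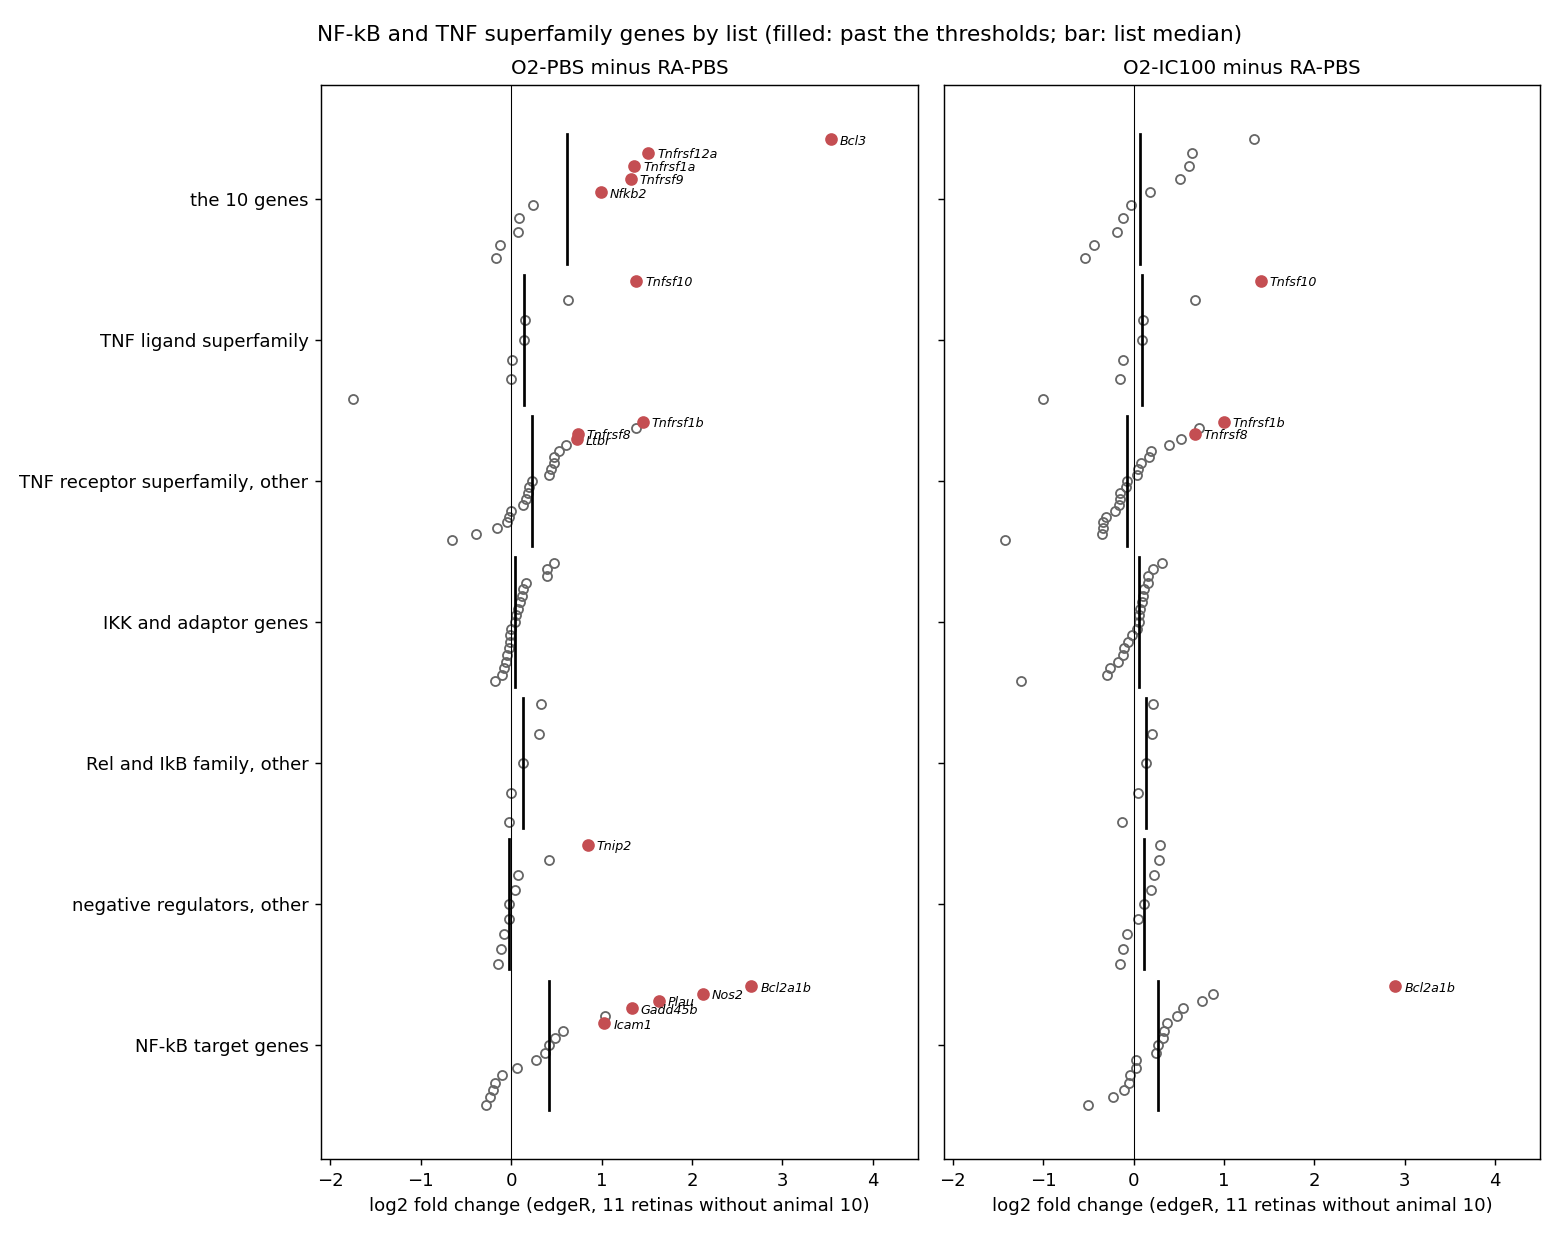
Log2 fold changes from edgeR, without animal 10, for the 10 genes and for the tested genes of 6 pathway lists, in O2-PBS (left) and O2-IC100 (right) against RA-PBS. Filled points passed the thresholds (5 of the 10 genes and 10 list genes on the left, 0 and 4 on the right), and the bar is the list median.

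Markers of cell types moved with the same comparisons. The endothelial list summed to 254 to 350 CPM in RA-PBS, 510 to 602 CPM in O2-PBS and 360 to 399 CPM in O2-IC100 without animal 10. In the fit without that animal, 11 of 14 genes were called higher in O2-PBS than RA-PBS, beside 4.09% of all genes tested. Genes listed as reactive Müller glia markers summed to 256 to 658, 716 to 1146 and 386 to 482 CPM in the same order. Of these, 8 of 12 were called higher, beside the same 4.09%. The called ones were Cebpd, Edn2, Fgf2, Lif, Osmr, Socs3, Stat3 and Vim, while Gfap, Serpina3n, Lcn2 and Timp1 were not called. Both sums were highest in all 4 O2-PBS retinas, as were Bcl3 and the 3 receptors among the 11 retinas.

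Microglia and macrophage genes followed another order, 65.0 to 123 CPM in RA-PBS, 129 to 161 CPM in O2-PBS and 146 to 180 CPM in O2-IC100 without animal 10. Of these, 8 of 16 were called higher in O2-PBS than RA-PBS, beside 4.09% of all genes tested. Lymphocyte and neutrophil genes were low, at 3.40 to 8.35, 8.67 to 9.04 and 7.71 to 8.31 CPM, and 0 of the 6 tested were called (1 with an unadjusted p under 0.05, and 0 called in DESeq2). Rod genes stayed at 37840 to 45203 CPM in the 11 retinas, with 0 of 12 called in edgeR (1 with an unadjusted p under 0.05) or in DESeq2. The part of these cell types in the changes of the 10 genes was not tested. In animal 10 the microglia sum was 653 CPM, the reactive Müller glia sum 3684 CPM and the endothelial sum 73.5 CPM.

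**Figure D5:**
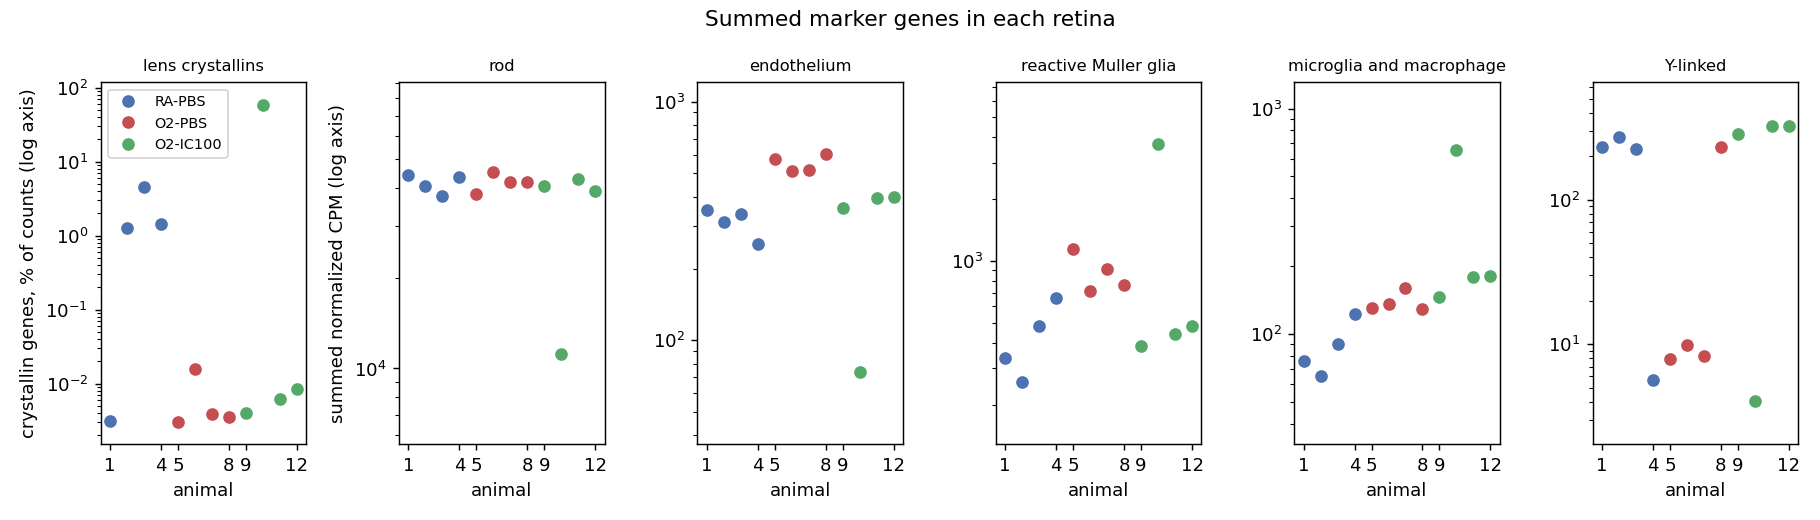
Crystallin genes as a percentage of counts and summed normalized CPM of 5 marker lists in each of the 12 retinas (log axes, colours by group). Animal 10 is at 58.9% crystallin and lowest for rod and endothelial genes, O2-PBS retinas are highest of the other 11 for endothelial and reactive Müller glia genes, and Y-linked genes are low in animals 4, 5, 6, 7 and 10.

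The genes most like Bcl3 across the 11 retinas other than animal 10, by Pearson's r of log2 CPM among all genes tested, were Agtpbp1 (0.98), Des (0.972), Ahr (0.967), Rfx2 (0.964) and Egln3 (0.964). Egln3 encodes an oxygen-sensing prolyl hydroxylase and Des the muscle filament protein desmin. For Tnfrsf9 they were Tgfa (0.972), Tnfaip1 (0.938), Bag3 (0.924), Clic4 (0.917) and Fam129b (0.913). For Tnfrsf12a they were Junb (0.972), Klf6 (0.959), Tnfrsf1a (0.947), St3gal4 (0.935) and Shisa5 (0.933), and Tnfrsf1a is itself 1 of the 10. These are descriptions over 11 retinas that share their group structure and their libraries.

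Among the 10 genes, Bcl3 went most closely with Tnfrsf1a (r = 0.870), Tnfrsf12a (0.824) and Nfkb2 (0.823), less with Relb (0.170), and against Tnfaip3 (-0.596). Tnfrsf1a and Tnfrsf12a were the closest pair at 0.947. Nfkb1 and Nfkbia, a subunit gene and the gene of its inhibitor, had the most negative value, -0.854, over the same 11 retinas.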

How the data were processed

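Retinal RNA of 12 mice was sequenced as 150 bp pairs. The authors pseudoaligned the reads with Kallisto to the GRCm39 transcriptome (Ensembl 104) and summed transcripts per gene with tximport, and the deposited table holds expected counts that are not scaled to depth. Of its values, 42.0% are not whole, and they were rounded for the tests. Symbols were found for 35374 of 36131 identifiers. Groups were taken from the labels. Where the labels end 75% O2 at P12 and give PBS by the peritoneal route, the paper's methods give P11 as the last day and no route for PBS. Nothing in the labels ties retinas to litters, and p-values set group differences against the spread between these retinas, with no term for litter.

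Counts were normalized by TMM, filtered with filterByExpr and fitted in 1 model of 3 groups with edgeR 4.0.16 in R 4.3.3 (quasi-likelihood, robust, two-sided, Benjamini-Hochberg over all genes tested), with all 12 retinas and without animal 10. CPM per retina were scaled over all 12 retinas. Calls needed a 1.5-fold difference or more, p under 0.05 and adjusted p under 0.1, the thresholds of the study, which used DESeq2. Alternatives were DESeq2 1.42.0, limma voom 3.58.1, 2 other normalizations, 2 other filters, the 2 groups alone, each retina left out, animals 1 and 10 left out, and a Y-linked covariate (mean log2 CPM, prior count 2). Fits without animals 3 and 10, 2 to 4 and 10, and 5 and 10 were added after seeing the data. The procedure was tested on simulated data for O2-PBS minus RA-PBS, where edgeR recovered 94.5% of 199 altered genes among 16150 with 12 false calls. The simulation left out animal 10 and low-count genes and gave every gene the same spread. It held no lens-rich library and no litter or Y-linked differences, so these rates need not hold for the real retinas.

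The 10 genes and the lists were chosen with earlier results of these data known. Named genes were all 10, every gene of the pathway lists called in any comparison without animal 10, and the 5 with the highest Pearson r to Bcl3, Tnfrsf9 and Tnfrsf12a. Of the others, Rel, Nfkbiz and the ligands Tnf, Lta, Tnfsf9 and Tnfsf12 were chosen after their values were seen. Exon lengths were unions of exons in a GENCODE annotation of GRCm38, used for lengths only. No gene coordinates are given, since the reference is not of the files' build. The promoter windows are in GRCm38.p6. Intervals are 1.96 SE on the log2 scale, and the limit of 3 counts covers counting error only.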

Additional observations from a re-analysis of the deposited data

Results flagged for a closer look

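Each of the 10 genes was examined in each group of 4 retinas for a value far from the other 3, by the gap to the nearest value as a share of the group's range, against Dixon's 95% critical value. Chance flags about 1 in 20 groups, and 7 of 30 were flagged here. In 6 of them the retina was O2-IC100 animal 10, the lens-rich library. It was the highest of its group for Rela (0.973 of the range, 79.0 CPM), Nfkb2 (0.961, 19.8 CPM), Tnfrsf1a (0.934, 27.5 CPM), Nfkb1 (0.909, 42.8 CPM) and Bcl3 (0.833, 5.81 CPM) and the lowest for Tnfaip3 (0.881, 44.3 CPM). The flagged value of the other group was Tnfrsf12a in O2-PBS animal 5 (0.908 of the range, 14.5 CPM).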

How the results depend on the processing

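No paired analysis was possible because the animals are numbered 1 to 12 and no groups share replicate numbers. With all 12 retinas, edgeR called 133 genes, 1 of them among the 10 and 1 in the pathway lists, between O2-PBS and RA-PBS, and none in the other comparisons. In the order genes, members of the 10, pathway genes, O2-PBS against RA-PBS gave 412, 4 and 6 in DESeq2, 1167, 5 and 11 in DESeq2 without animal 10, 867, 5 and 9 with the 2 groups alone, 968, 5 and 11 without animals 1 and 10, 882, 4 and 10 with the Y-linked covariate and without animal 10, 1343, 5 and 14 without animals 3 and 10, 784, 4 and 9 without animals 5 and 10, and 4246, 4 and 30 without animals 2, 3, 4 and 10. O2-IC100 against O2-PBS gave, in the same order of settings but without the 2 groups alone, 125, 1 and 1, 383, 3 and 2, 282, 2 and 1, 61, 0 and 0, 274, 2 and 0, 21, 1 and 0, and 777, 4 and 6, and voom called 2 genes. O2-IC100 against RA-PBS gave, for genes and members, 299 and 1, 567 and 1, 315 and 0, 427 and 1, 299 and 0, 242 and 0, and 2996 and 2, while voom called 2 genes, the upper quartile 3 and no filter 2. The pair 1 and 10 was fixed on an earlier look at crystallin shares, which are highest in animals 3 and 10 here. Without animals 2, 3, 4 and 10, only 1 RA-PBS retina was left. The counts against RA-PBS in that setting rest on the assumption that this retina varied like the others.

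Leaving out 1 retina at a time gave 32 to 1046 genes, 0 to 5 of the 10 and 0 to 10 pathway genes for O2-PBS against RA-PBS, 0 to 158, 0 to 2 and 0 to 0 for O2-IC100 against O2-PBS, and 0 to 261 genes and 0 to 0 of the 10 for O2-IC100 against RA-PBS. The upper ends came from leaving out animal 10, and the ranges without it were 32 to 114, 0 to 1 and 0 to 1 in the first comparison, 0 to 0 in the second and 0 to 3 genes in the third. The cause was not tested.

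Signs turned mostly in values near 0. Relb in O2-PBS against RA-PBS ran from -0.21 to 0.26 with 1 retina left out (below 0 without animal 2, 3 or 5), was -0.13 with the Y-linked covariate, and came to -0.0098, -0.38 and -0.21 without animals 3 and 10, 2, 3, 4 and 10, and 5 and 10. In O2-IC100 against RA-PBS, Nfkb1 ran from -0.11 (without animal 10) to 0.20 with 1 retina left out and came to -0.13 in DESeq2 without animal 10, -0.18 without animals 1 and 10, -0.12 with the covariate, -0.057 without animals 3 and 10 and -0.12 without animals 5 and 10. Rela ran from -0.033 (without animal 10) to 0.70 and came to -0.052 in DESeq2 without animal 10 (0.57 with it), -0.077 with the covariate, -0.036 without animals 3 and 10, -0.14 without animals 2, 3, 4 and 10 and -0.044 without animals 5 and 10. Relb ran from -0.54 to 0.0018 (without animal 9), and Nfkbia was -0.0050 without animals 2, 3, 4 and 10. Of the 26 settings, Bcl3 was called higher in O2-PBS in 24, Tnfrsf12a and Tnfrsf1a in 9 each, Nfkb2 in 8 and Tnfrsf9 in 6. Counts of 7 to 12 per RA-PBS library limit the precision for Bcl3, and Tnf did not pass the filter.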
